A study of Mus musculus with 3 samples.

Results

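The dividing cells of the regenerating nerve bridge are the cells that the authors' deposited annotation puts in the class MES_DIV, in the libraries taken 7 and 21 days after sciatic nerve injury. They number 325 of the 7234 annotated cells of the series, 206 at day 7 and 119 at day 21. The class has 7 more cells in the intact nerve library, which are too few to describe and are not counted here. The annotation has 5 other classes, named MES_ENDO, MES_EPI, MES_PERI, MES_DIFF and MES_EPI-diff. Their cells in the same library, 1574 at day 7 and 3992 at day 21, are pooled as the comparison throughout.

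All cells came from mouse sciatic nerve in which a Pdgfrb-driven, tamoxifen-dependent Cre (Pdgfrb-cre/ERT2) had switched on a TdTomato reporter at the Rosa26 locus (R26-TomatoLSL), and were sorted for TdTomato. The groups were the intact nerve, the bridge at 7 days and the bridge at 21 days after injury, and the intact nerve alone went through myelin-removal beads. Nerves were pooled before dissociation and each group was 1 library, so animals cannot be told apart and no value below has a replicate check. The age and sex of the mice and the tamoxifen schedule are not given in the sources used here. Pdgfrb is active in fibroblasts, perineurial cells, pericytes and vascular smooth muscle, so the reporter by itself does not separate these.

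A cell that divides copies its genome in S phase and parts the copies in mitosis. Genes for replication are switched on by E2F factors as the cell leaves G1, histone genes are transcribed in step with DNA synthesis, and genes for spindle, kinetochore and cytokinesis proteins peak in G2 and mitosis, many through the DREAM complex and FOXM1 at promoter elements called CHR. After a nerve is cut, a bridge of new tissue forms between the stumps, and fibroblasts, perineurial cells, vessel cells and Schwann cells all enter it. A nerve has 3 connective tissue layers, the endoneurium around the fibres, the perineurium around each fascicle and the epineurium outside.

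The 5 genes that mark the class are a set with shared roles in mitosis. Mki67 encodes the surface protein of mitotic chromosomes, Top2a the topoisomerase that untangles sister chromatids, Birc5 (survivin) a subunit of the chromosomal passenger complex, Prc1 the protein that bundles the central spindle, and Ube2c the ubiquitin-conjugating enzyme of the anaphase-promoting complex. Their promoters are shown because they are switched on together, with that of Mcm5, a subunit of the replicative helicase, as the S phase counterpart. Each is 240 bases on the gene's own strand, from 250 to 11 bases before the RefSeq start in GRCm38.p6. Capitals in the first 5 mark CHR (TTTGAA or TTCGAA) and CCAAT boxes on either strand. Capitals in Mcm5 mark E2F motifs (TTTCCCGC, TTTCGCGC, TTTGCCGC or TTTGGCGC) and CCAAT boxes on either strand.
Mki67, chr7:135716390-135716629, minus strand: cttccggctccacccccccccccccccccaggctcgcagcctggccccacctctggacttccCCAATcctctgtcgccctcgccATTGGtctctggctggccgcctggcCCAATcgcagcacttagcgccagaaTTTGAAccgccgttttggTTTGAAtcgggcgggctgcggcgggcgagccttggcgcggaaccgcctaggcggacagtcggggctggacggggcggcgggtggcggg
Top2a, chr11:99024200-99024439, minus strand: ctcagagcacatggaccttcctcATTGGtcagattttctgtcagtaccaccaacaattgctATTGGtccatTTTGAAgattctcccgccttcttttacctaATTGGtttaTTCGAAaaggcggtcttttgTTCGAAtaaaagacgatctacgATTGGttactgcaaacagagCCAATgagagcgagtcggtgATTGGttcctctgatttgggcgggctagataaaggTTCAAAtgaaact
Birc5, chr11:117848987-117849226, plus strand: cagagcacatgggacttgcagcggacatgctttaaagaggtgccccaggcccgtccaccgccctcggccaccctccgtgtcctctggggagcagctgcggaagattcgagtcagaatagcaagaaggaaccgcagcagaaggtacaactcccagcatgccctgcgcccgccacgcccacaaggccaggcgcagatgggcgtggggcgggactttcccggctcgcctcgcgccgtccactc
Prc1, chr7:80294201-80294440, plus strand: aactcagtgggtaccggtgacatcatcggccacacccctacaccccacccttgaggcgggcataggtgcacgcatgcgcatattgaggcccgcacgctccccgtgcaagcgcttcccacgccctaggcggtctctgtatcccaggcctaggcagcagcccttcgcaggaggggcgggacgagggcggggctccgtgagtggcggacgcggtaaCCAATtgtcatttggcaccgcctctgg
Ube2c, chr2:164769679-164769918, plus strand: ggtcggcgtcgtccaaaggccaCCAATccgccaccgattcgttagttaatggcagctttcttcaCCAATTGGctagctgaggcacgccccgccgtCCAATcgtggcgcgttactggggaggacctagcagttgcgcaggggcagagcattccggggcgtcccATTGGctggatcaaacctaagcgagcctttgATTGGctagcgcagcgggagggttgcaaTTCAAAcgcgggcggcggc
Mcm5, chr8:75109259-75109498, plus strand: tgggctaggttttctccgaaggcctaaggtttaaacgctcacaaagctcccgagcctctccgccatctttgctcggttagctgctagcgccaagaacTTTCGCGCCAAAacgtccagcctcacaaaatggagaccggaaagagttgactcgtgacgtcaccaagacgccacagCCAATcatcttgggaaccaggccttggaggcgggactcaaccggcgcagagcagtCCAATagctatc

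The Top2a window held 4 CHR matches and 6 CCAAT boxes, the Mki67 window 2 and 3, and the Ube2c window 1 and 6, of which 1 pair overlaps. The Prc1 window had 1 CCAAT box and no CHR match, and the Birc5 window had neither, which says only that these letters are not in these 240 bases. Mcm5 had 2 overlapping E2F matches and 2 CCAAT boxes. Over all 27025 genes with a window, 16.9% held a CHR match, 33.7% a CCAAT box and 1.79% an E2F match. Of the genes in the mitotic lists used below, 86 of 102 had a window, and 33.7% of these held CHR (95% binomial interval 23.9 to 44.7%), 61.6% CCAAT and 6.98% E2F. Of the genes in the replication lists, 41 of 62 had a window, with 17.1%, 56.1% and 19.5% in the same order. A match is a string of letters and was not tested as a binding site.

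The class made up 11.6% of annotated cells at day 7 (exact binomial 95% interval 10.1 to 13.2%, 206 of 1780) and 2.89% at day 21 (2.40 to 3.45%, 119 of 4111). In intact nerve the share was 0.521%. Without cells carrying markers of other types, described further on, the shares were 8.11%, 1.38% and 0.149% in the same order. Annotated cells of any class with at least 3 of the 5 markers after thinning to 2000 UMIs were 6.24% at day 7 and 1.48% at day 21. The dividing cells were deeper than the pooled other classes. Their median was 24149.5 UMIs a cell against 18933 at day 7, and 11429 against 7359.5 at day 21. At day 7 the class MES_DIFF alone had a higher median, 26050. Their median mitochondrial share was 0.859% against 0.905% at day 7 and 1.64% against 2.08% at day 21. In all they carried 5174582 UMIs at day 7 and 1482121 at day 21, and the other classes 30995330 and 32201343. Between pairs of libraries 1 or 2 annotated barcodes were the same, none of them dividing, and no doublet caller was run.

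The markers were far above the rest of the library at both times. Levels are given as CPM, a gene's UMIs per 1000000 UMIs summed over a class, with exact Poisson 95% intervals that cover counting error only, and they describe a class that the authors drew from the same cells. Mki67 stood at 306 CPM (291 to 321) in dividing cells and 4.65 in the others at day 7, and at 419 (387 to 453) and 1.46 at day 21. Top2a stood at 516 (496 to 536) and 4.81 at day 7, and at 699 (657 to 743) and 1.34 at day 21. Birc5 stood at 518 (499 to 538) and 9.36 at day 7, and at 530 (494 to 569) and 1.40 at day 21.
The other cells held less of each transcript at day 21 than at day 7, with the smallest fall for Prc1. No fall of that size was seen in the dividing cells. The makeup of the other cells also differs between the times. Among the other classes Birc5 was highest at day 7 in MES_ENDO (23.6 CPM) and MES_EPI-diff (21.9). Prc1 was at 387 CPM (370 to 404) against 3.74 at day 7 and 504 (469 to 541) against 1.71 at day 21. Ube2c was at 622 CPM (601 to 644) against 3.81 at day 7 and 561 (524 to 601) against 0.870 at day 21, a ratio of 163 (136 to 198) and of 646 (443 to 978).

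**Figure D1:**
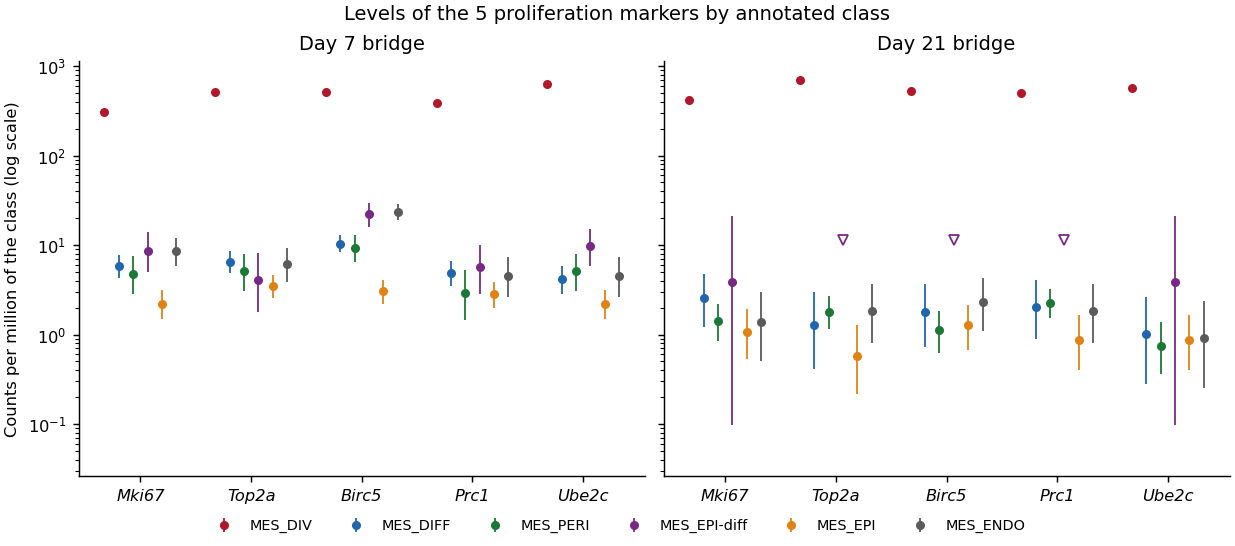
Level of the 5 marker genes in CPM (vertical, log axis) in the dividing class MES_DIV and in each other class, at day 7 (left) and day 21 (right), with exact Poisson 95% intervals as bars. For a class with no UMI, an open triangle stands at the level that 3 counts would give. The dividing class lies between 306 and 699 CPM for every gene and library, and no other class is above 23.6 CPM.

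Not every cell of the class carried them. At day 7, 182 of 206 dividing cells (88.3%) had a UMI of at least 3 of the 5 genes, 142 had all 5 and 11 had none. At day 21, 92 of 119 (77.3%) had at least 3, 63 had all 5 and 19 had none. In the other classes 39 cells (2.48%) had at least 3 at day 7 and 4 cells (0.10%) at day 21, and at day 7 the share was highest in MES_EPI-diff, with 8 of 94 (8.51%), and in MES_DIFF, with 15 of 308 (4.87%). These shares depend on depth. After each cell was thinned to 2000 UMIs, at least 3 markers were seen in 105 dividing cells (51.0%) and 6 others at day 7, and in 61 (51.3%) and no other cell at day 21.

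Because the sort takes any cell in which Cre was active, the dividing class was checked for markers of other cell types. A cell was set aside when, thinned to 2000 UMIs, it had at least 3 markers of Schwann cells (11 genes), of mural cells, which are pericytes and vascular smooth muscle (16 genes), of endothelium (11), of myeloid cells (11) or of neutrophils and mast cells (8). At day 7 this held for 67 of 206 dividing cells (32.5%) and at day 21 for 63 of 119 (52.9%). Part of the class thus carried markers of types other than the nerve fibroblast layers. Whether such a barcode is a cell of that type, a doublet or a cell with free RNA was not tested, and 15 of the 36 mural-set cells at day 7 also had a UMI of the fibroblast gene Pdgfra. Results are therefore given both for the whole class and for the 139 cells at day 7 and 56 at day 21 that remain, called the cells without other-type markers.

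Schwann markers were the most frequent at day 21. They were carried by 51 of 119 dividing cells (42.9%, 33.8 to 52.3%) against 27 of 206 (13.1%, 8.82 to 18.5%) at day 7, and by 55 of 3992 (1.38%) and 4 of 1574 (0.254%) cells of the other classes. Sox10, the transcription factor that specifies Schwann cells, was at 229 CPM in the Schwann-marked dividing cells of day 21, at 11.9 in the cells without other-type markers and at 2.27 in the other classes. At day 7 the same values were 202, 6.21 and 1.06. Foxd3, a neural crest factor, was at 173 CPM at day 21 and 181 at day 7 in the Schwann-marked cells, and at 1.12 and 0.387 in the other classes. Erbb3, the neuregulin receptor of Schwann cells, was at 216 and 172 CPM, against 2.11 and 1.13. Sox10, Foxd3 and Erbb3 are in the Schwann list that chose these cells, so these differences follow at least in part from the choice.
Of the Schwann-marked cells, 43 of 51 at day 21 and 26 of 27 at day 7 had at least 3 of the 5 markers. They were drawn from the class that these markers mark, so this is no separate sign that Schwann cells divide. Pdgfra, the receptor that marks nerve fibroblasts, was seen in 2 of the 51 and in 1 of the 27, but in 1948 of 3992 and 1400 of 1574 cells of the other classes. TdTomato transcripts were seen in 25 of the 51 and 7 of the 27, at 82.5 and 38.3 CPM, beside 62.3 and 74.0 CPM in the other classes. Among barcodes of at least 2000 UMIs that the authors put in no class, 1461 of 2458 at day 21 and 284 of 1753 at day 7 had at least 3 Schwann markers. How Schwann-marked cells came through the TdTomato sort was not tested.

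At least 3 mural markers were carried by 38 of 206 dividing cells (18.4%) at day 7 and 18 of 119 (15.1%) at day 21, against 18 (1.14%) and 9 (0.225%) cells of the other classes. Of these, 2 and 8 also had at least 3 Schwann markers and were counted as Schwann, which leaves a mural set of 36 cells (17.5%) and 10 cells (8.40%). Rgs5, a regulator of G protein signalling typical of pericytes, was at 3051 CPM in this set at day 7 and 2119 at day 21, and at 8.90 and 7.64 in the other classes. Acta2, smooth muscle actin, was at 4271 and 857 CPM, against 92.2 and 5.06. Higd1b, a further pericyte marker, was at 362 and 216 CPM, against 0.871 and 0.311. Rgs5, Acta2 and Higd1b are in the lists that chose this set, so these differences follow at least in part from the choice. Pdgfrb itself was at 816 and 1030 CPM in these cells and at 117 and 168 in the other classes.
This set was the one least marked as dividing. Of its cells, 10 of 36 at day 7 and 7 of 10 at day 21 had none of the 5 division markers, while 0 of 139 and 4 of 56 of the cells without other-type markers had none. In intact nerve 5 of the 7 cells of the class carried mural markers.

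Other types were rare among the dividing cells. At least 3 endothelial markers were carried by 3 cells at day 7 and 1 at day 21, of which 1 and 1 were counted in a set above, and myeloid markers by 2 and 1. A single cell at day 21 was set aside as a mast cell: 2427 of its 32823 UMIs came from mast cell genes, 1088 from the protease gene Cma1, 916 from Mcpt4, 410 from Cpa3 and 13 from the receptor gene Kit, and it had all 5 division markers. The cut at 3 markers was close for some cells, with 8 dividing cells at exactly 2 and 8 at exactly 3 Schwann markers at day 7, 9 and 15 at day 21, and 21 and 5 for mural markers at day 7. The sets had median depths of 17515 and 9631 UMIs (Schwann), 21136 and 13805 (mural) and 27209 and 12524.5 (without other-type markers).

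**Figure D2:**
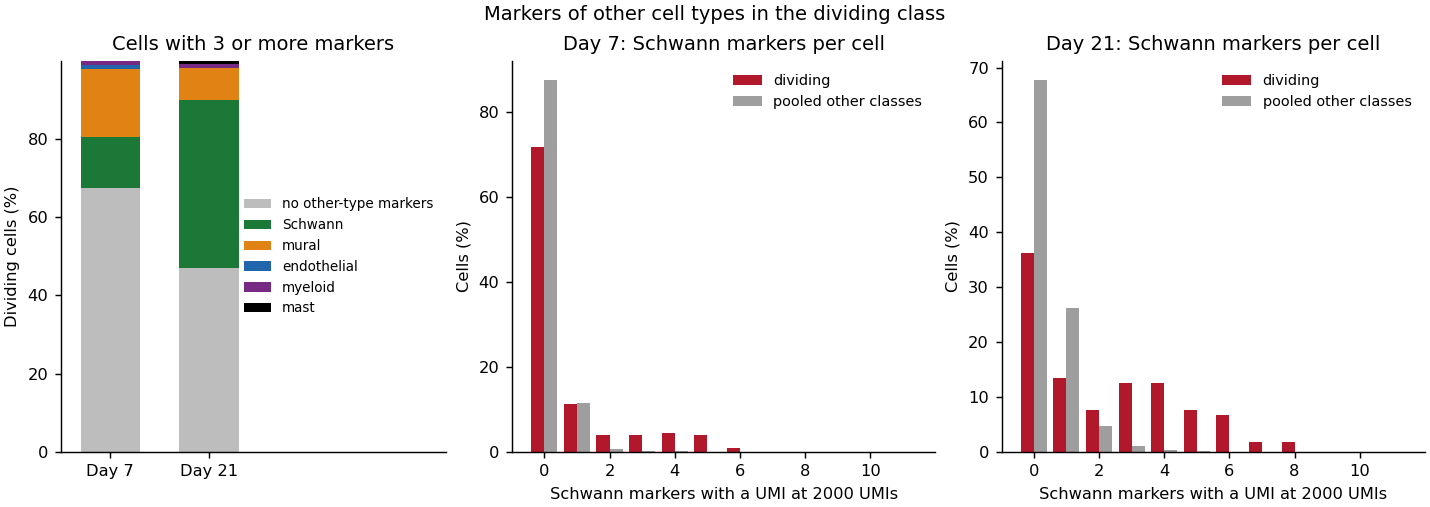
Left, makeup of the dividing class (percent of cells) at day 7 and day 21 by the type of which a cell has at least 3 markers at 2000 UMIs. Middle and right, percent of dividing cells (red) and of pooled other cells (grey) by number of Schwann markers with a UMI, at day 7 and day 21. Schwann-marked cells are 13.1% of the class at day 7 and 42.9% at day 21, and few other cells reach 3 markers (0.254% and 1.38%).

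Cell cycle genes as a whole were higher in the dividing class. Over 9 lists from G1 to the anaphase-promoting complex, 180 genes were measured, which means over 3 UMIs in either sum. Of these, 169 were past 2-fold higher at day 7 and 171 at day 21, and the median log2 ratios were 4.30 and 5.45. For the cells without other-type markers the medians were 4.36 and 5.69, with 171 genes past 2-fold higher at day 21. Over all measured genes 12.6% were past 2-fold higher and 9.83% lower at day 7, and the median was 0.04. At day 21 the shares were 20.7% and 10.1%, with a median of 0.19. For the cells without other-type markers they were 13.0% higher and 10.3% lower at day 7, and 28.6% and 9.42% at day 21. Each sum had 0.5 counts added before its log2 ratio was formed, and many of the genes past 2-fold are scarce: of genes with at least 20 CPM in the higher sum, 9.41% were higher and 3.27% lower at day 7, and 14.1% and 7.66% at day 21.

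Genes that prepare and carry out replication stood higher throughout. Of the origin licensing and firing list 19 of 19 were past 2-fold at both times, with median log2 ratios of 2.61 and 4.10. Mcm5, whose promoter is shown above, was at 47.0 CPM against 4.07 at day 7 and 55.3 against 1.24 at day 21. Gmnn (geminin), which blocks a second licensing, was 23.6-fold (19.9 to 28.2) and 60.3-fold (44.8 to 81.9) higher. Of the DNA synthesis list 29 of 29 were past 2-fold at both times, with medians of 3.02 and 3.46. Pclaf, a partner of the sliding clamp PCNA, led it at 576 CPM against 6.19 at day 7 and 462 against 0.652 at day 21. Tk1, the thymidine kinase of S phase, was at 149 against 2.55 and 166 against 1.09 CPM.
The G1 list was more mixed, as 10 of 17 at day 7 and 12 of 17 at day 21 were past 2-fold higher. Its leading members were the late-G1 cyclin Ccne2, 27.9-fold (21.6 to 36.6) and 85.6-fold (58.0 to 130) higher, and the repressor E2f8, 33.2-fold higher at day 7 and at 49.9 CPM at day 21 against 1 UMI in all other cells. Replication-dependent histones, whose transcripts mostly lack a poly(A) tail, were nonetheless counted in 13 of 14 genes, and 12 of 13 were past 2-fold at both times. Their median log2 ratios were 6.22 and 6.49, and Hist1h1b, a linker histone, was at 897 CPM against 3.39 at day 7 and 822 against 1.74 at day 21.

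Mitotic genes stood far above the other cells. Median log2 ratios were 6.01 and 7.08 for mitotic kinases and regulators (21 of 22 and 22 of 22 past 2-fold), 5.66 and 7.47 for the kinetochore (22 of 22 at both times) and 5.81 and 7.66 for spindle and cytokinesis (30 of 30 at both times). Bub1, a kinase of the spindle checkpoint, was at 62.8 CPM against 0.548 at day 7. At day 21 it was at 67.5 CPM and had no UMI in the 3992 other cells, so that it was at least 724-fold higher when 3 counts are set as the floor of that sum. Melk, a mitotic kinase, was 135-fold (77.7 to 257) higher at day 7, and Cdc25c, the phosphatase that opens mitosis, 94.1-fold (44.2 to 240).
Kif14, a kinesin of cytokinesis, was 130-fold (49.1 to 489) higher at day 7 and at least 239-fold at day 21. Hmmr, a spindle-binding protein, was at 152 CPM against 1.71 and at 223 against 0.279. The condensin and mitotic chromatin list was past 2-fold in 16 of 16 at both times (medians 3.92 and 4.61). Of the anaphase-promoting complex list 10 of 12 and 9 of 12 were higher (2.05 and 2.99), led by Ube2c, with Cdc20, the activator of the complex, at 140 CPM against 2.16 and 273 against 2.42. The recombination and damage list, which shares replication fork genes, was higher in 18 of 18 (3.70 and 4.69), with Brca1 at 28.8 against 0.516 and 53.3 against 0.311 CPM.

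**Figure D3:**
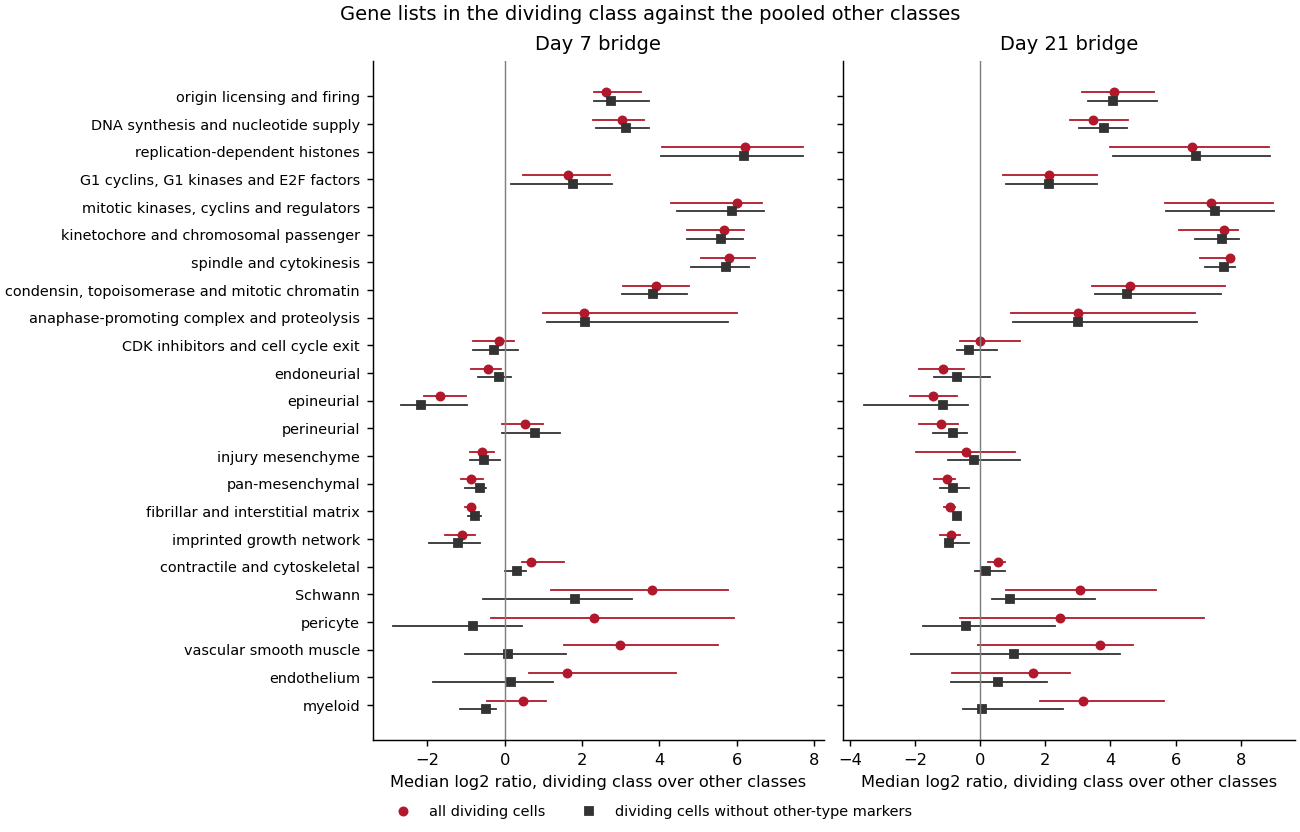
Median log2 ratio of each gene list (horizontal), dividing class against pooled other classes of the same library, at day 7 (left) and day 21 (right), for the whole class (red) and the cells without other-type markers (black). Bars are order-statistic 95% intervals over the genes of a list. Cell cycle lists lie right of 0 and epineurial and matrix lists left of 0. The pericyte median goes from 2.30 to -0.81 at day 7 when cells with other-type markers are left out. Pericyte genes were among those used to leave cells out, so this shift follows at least in part from the choice.

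Inhibitors of the cycle were not lower as a group. Of 16 CDK inhibitors and exit genes, 2 were past 2-fold higher and 3 lower at day 7, and 4 and 1 at day 21, with medians of -0.13 and -0.01. Cdkn2c (p18), an inhibitor of the G1 kinases CDK4 and CDK6, was at 92.2 CPM against 11.5 at day 7 and 214 against 18.8 at day 21, and its relative Cdkn2d (p19) was 5.37-fold (4.89 to 5.90) and 4.07-fold (3.65 to 4.52) higher. Cdkn1c (p57), which goes with growth arrest, was lower, at 131 CPM against 496 at day 7 and 132 against 203 at day 21. Gas1, a membrane protein of growth-arrested cells, was at 81.9 against 261 and at 89.1 against 273 CPM. Cdkn1a (p21), the p53 target, was level at day 7, at 111 against 112 CPM, and 2.31-fold (2.06 to 2.59) higher at day 21.

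Outside the cell cycle lists, among genes reaching 50 CPM and seen in 10% or more of the cells of the higher sum, those with the largest ratios included further genes of the cycle. Without the share of cells as a condition, the mast cell genes of the 1 cell above would lead at day 21, with Cma1 at a log2 ratio of 12.36. Esco2, which fastens cohesin during S phase, was at 58.4 CPM against 0.161 at day 7 and at 85.7 against 0.0621 at day 21, where the other cells had 2 UMIs. Mxd3, a MAX-binding factor of proliferating cells, was at 122 against 0.839 and 180 against 0.466 CPM. The kinetochore-microtubule protein Ska1 and the spindle proteins Dlgap5 and Depdc1a were among the first 10 at both times, at 60.3 to 93.8 CPM in dividing cells. Lower at both times was Ogn (osteoglycin), a small matrix proteoglycan, at 104 against 468 CPM at day 7 and 76.9 against 539 at day 21. Sfrp2, a secreted Wnt modulator of fibroblasts, was at 60.5 against 345 and at 10.8 against 159. Mmp3 (stromelysin, 6.57 against 50.2 CPM), the complement gene C3 (19.5 against 135) and Angptl1 (80.6 against 401) were lower at day 7. Ptgs2, the inducible cyclooxygenase, was at 11.5 against 102 CPM at day 21.

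Matrix and fibroblast genes were at lower levels in the dividing class. Of 23 fibrillar and interstitial matrix genes, 7 were past 2-fold lower and none higher at day 7 (median log2 ratio -0.87), and 11 lower and 1 higher at day 21 (-0.94). Without the cells carrying other-type markers the medians were -0.77 and -0.71, with 5 and 4 genes lower. Eln (elastin) was at 82.3 CPM against 451 at day 7 and 55.3 against 221 at day 21. Fmod (fibromodulin), a collagen-binding proteoglycan, was at 13.1 against 42.8 and 5.40 against 34.7 CPM. Dcn (decorin) had log2 ratios of -0.77 and -1.44.
Pdgfra was at 140 CPM against 253 at day 7 and 110 against 295 at day 21, and in the cells without other-type markers at 162 and 154. Pdgfrb was higher in the whole class, at 179 against 117 and 233 against 168 CPM, but not without the other-type cells, at 74.6 and 139. The latter was 1.21-fold lower than the other classes with an interval of 0.995 to 1.48, which takes in no difference. Of 13 genes of the imprinted growth network 7 were past 2-fold lower at day 7 (median -1.11), and of 12 measured 5 at day 21 (-0.91). Mest, a gene of that network, was at 500 CPM against 904 and at 93.8 against 297.

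Contractile genes were higher by their medians in the whole class (0.68 and 0.54), less so without all cells with other-type markers (0.31 and 0.18). Of 20, 8 were past 2-fold higher at day 7 and 5 at day 21, beside 12.6% and 20.7% of all measured genes. The day 21 count is near that share. In the cells without other-type markers 1 was higher and 1 lower at day 7, and 3 and 2 at day 21. Of all measured genes in those cells 13.0% were higher and 10.3% lower at day 7, and 28.6% and 9.42% at day 21. The cells left out were chosen by genes of the pericyte, smooth muscle, Schwann and myeloid lists, and the other classes were not filtered so. A fall of these medians thus follows at least in part from the choice. The pericyte list went from a median of 2.30 at day 7 and 2.44 at day 21 to -0.81 and -0.45. The vascular smooth muscle list went from 2.97 and 3.68 to 0.10 and 1.02. The Schwann list went from 3.80 and 3.07 to 1.81 and 0.91, so the remaining cells still had more Schwann transcripts than the other classes. The myeloid list went from 0.47 and 3.15 to -0.49 and 0.05. Growth factor ligands were more often lower than higher, 9 against 3 of 20 at day 7 and 8 against 3 of 19 at day 21, but in the cells without other-type markers 6 against 1 and 6 against 5. Of all measured genes 9.83% were lower at day 7 and 10.1% at day 21 in the whole class. The counts of higher ligands were near or below the shares of all genes given above. The ligand Pdgfa, which binds both PDGF receptors, was higher in the whole class (log2 ratios 1.47 and 2.24) and stood at 351 and 126 CPM in the Schwann-marked cells. In the cells without other-type markers it was at 29.8 and 33.2 CPM, beside 31.7 and 15.1 in the other classes. Ribosome biogenesis genes were slightly higher (0.36 and 0.45), with Nop56, a nucleolar protein, 2.39-fold and 2.89-fold. Medians of the glycolysis (0.01 and -0.07) and p53 target lists (-0.13 and -0.11) lay near 0.

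Layer markers put the dividing cells nearer to some layers than to others. Of 14 epineurial markers, 11 were past 2-fold lower at both times (medians -1.67 and -1.45), among them Clec3b, a plasminogen-binding lectin, at 105 CPM against 579 and 277 against 1075. Pi16, which marks adventitial fibroblasts, was at 81.6 against 307 and at 52.0 against 236 CPM. Endoneurial markers had medians of -0.44 and -1.13, and Apod, a lipid carrier of endoneurial fibroblasts, was at 880 against 2464 and 331 against 2805 CPM. Perineurial markers had a median of 0.54 at day 7, with an interval over the genes of -0.08 to 1.00, which takes in 0. Of these 13 genes 2 were past 2-fold higher, near the 12.6% of all measured genes. At day 21 they were lower (-1.20), with 9 of 13 past 2-fold, beside 10.1% of all measured genes. Spink1, a protease inhibitor of the perineurial list, was 3.25-fold (2.31 to 4.53) higher at day 7, and at day 21 it was at 22.9 CPM against 86.3. Lypd2, of the same list, was at 25.5 against 12.7 and at 38.5 against 144.
In the cells without other-type markers the medians were -2.17 and -1.14 for epineurial, -0.15 and -0.71 for endoneurial and 0.79 and -0.84 for perineurial markers.
The pool they are set against differs between the times, since MES_EPI is 42.9% of other cells at day 7 and MES_PERI 51.8% at day 21. When the classes are weighted by the makeup of the nearest classes given next, the epineurial median at day 7 is -0.12 and the perineurial -0.47, and the epineurial median at day 21 is -0.71. The injury mesenchyme list was somewhat lower at day 7, with a median of -0.58 and an interval over the genes of -0.90 to -0.27. At day 21 it was split, with a median of -0.44 and an interval of -1.97 to 1.08. There 2 of 10 genes were past 2-fold higher and 3 lower, beside 20.7% and 10.1% of all measured genes.

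Each dividing cell was then given its nearest class by multinomial likelihood over 100 genes per class, with cell cycle genes left out. Held-out cells of the 5 classes were returned to their own class in 85.4% of cases at day 7 and 90.5% at day 21. The share was lower for MES_DIFF, at 78.2% and 76.5%. For MES_ENDO at day 7 it was 78.8%, and 40 of its 255 cells were called MES_PERI. Over the whole class, 95 of 206 cells (46.1%, 39.2 to 53.2%) were nearest to MES_DIFF at day 7, 76 (36.9%) to MES_PERI, 20 (9.71%) to MES_EPI-diff, 12 (5.83%) to MES_EPI and 3 (1.46%) to MES_ENDO. At day 21, 77 of 119 (64.7%, 55.4 to 73.2%) were nearest to MES_DIFF, 27 (22.7%) to MES_PERI, 8 (6.72%) to MES_EPI and 7 (5.88%) to MES_ENDO. A cell of another type is also given 1 of the 5 classes, so the counts without such cells carry more. At day 7, 25 of the 27 Schwann-marked cells were given MES_DIFF.
Without them, MES_PERI came first at day 7, with 72 of 139 cells (51.8%, 43.2 to 60.3%), then MES_DIFF with 55 (39.6%), MES_EPI-diff with 7, MES_EPI with 4 and MES_ENDO with 1. At day 21 MES_DIFF came first with 28 of 56 (36.3 to 63.7% by the interval), then MES_PERI with 20 (35.7%), MES_ENDO with 7 and MES_EPI with 1. For 11 of the 139 and 5 of the 56 the likelihood of the first class was under 20 times that of the next.

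MES_EPI was thus seldom the nearest class, although it made up 42.9% and 25.7% of the other cells. If each dividing cell without other-type markers is added to its nearest class, the dividing share was 23.0% for MES_PERI at day 7 (18.5 to 28.1%, 72 of 313), 15.2% for MES_DIFF (11.6 to 19.3%), 6.93% for MES_EPI-diff, 0.588% for MES_EPI and 0.391% for MES_ENDO. At day 21 it was 6.75% for MES_DIFF (28 of 415, lower bound 4.53%), 1.42% for MES_ENDO, 0.957% for MES_PERI (0.586 to 1.47%, 20 of 2089) and 0.0973% for MES_EPI. Over all dividing cells the order of MES_PERI and MES_DIFF depended on the method. By Pearson correlation MES_PERI took 61.7% and MES_DIFF 15.0% of them at day 7, and 71.4% and 10.1% at day 21. Among the cells without other-type markers at day 7, MES_PERI was first by correlation too, with 63.3% against 18.0% for MES_DIFF. At day 21 the lead of MES_DIFF among such cells, 28 of 56 by likelihood, did not hold by correlation. Correlation gave MES_DIFF only 10.1% of all 119 dividing cells there. The day 21 shares of 6.75% and 0.957% thus rest on the likelihood calls. Correlation returned held-out MES_DIFF cells to their own class in only 57.8% of cases at day 7 and 46.0% at day 21.

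**Figure D4:**
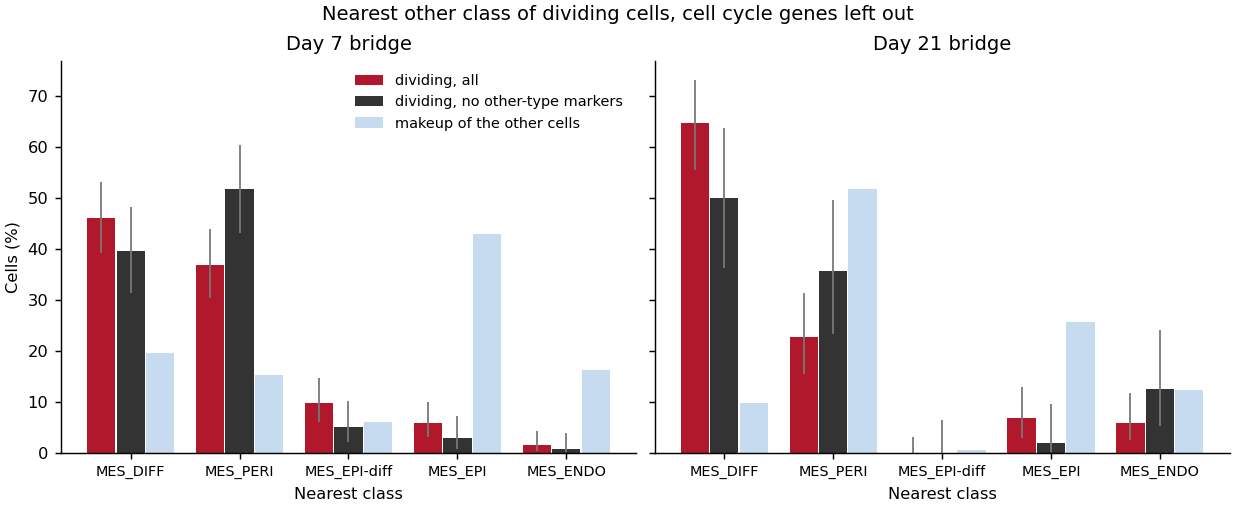
Share of dividing cells (percent) by nearest class, for the whole class and for the cells without other-type markers, beside the makeup of the other cells of the same library, with exact binomial 95% intervals. MES_EPI holds 42.9% and 25.7% of other cells but 5.83% and 6.72% of all dividing cells. MES_DIFF holds 19.6% and 9.69% of other cells but 46.1% and 64.7% of all dividing cells. In the cells without other-type markers MES_DIFF holds 39.6% at day 7, behind MES_PERI with 51.8%, and 50.0% at day 21.

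Layer markers, which take part in that assignment, show how close the match was. The perineurial markers summed to 745 CPM (704 to 788) in the dividing cells nearest to MES_PERI at day 7, and to 1227 in the class itself, and at day 21 to 2820 and 4123. The endoneurial markers in the same cells summed to 3288 CPM at day 7, beside 4662 in MES_PERI, so that class carried both sets at that time. Dividing cells nearest to MES_DIFF had 6329 CPM of injury mesenchyme markers at day 7 and 2072 at day 21, beside 8987 and 3059 in that class. The 7 cells nearest to MES_ENDO at day 21 had 1337 CPM of endoneurial markers beside 16990 in that class, and so carried the layer's markers at a far lower level. In each of these groups the dividing cells had less of the layer's markers than the class they were nearest to.

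Dividing cells varied in phase. After thinning to 2000 UMIs, transcripts of 62 replication and 102 mitotic genes were counted in each cell. At day 7 the median cell had 21.5 replication UMIs (quartiles 5.25 and 46) and 49 mitotic UMIs (29.25 and 64.25), and at day 21 13 (4 and 44) and 60 (24.5 and 85.5). The median cell of the other classes had 1 and 5 at both times. Mitotic transcripts outnumbered replication transcripts in 152 of 206 dividing cells (73.8%, 67.2 to 79.7%) at day 7 and in 95 of 119 (79.8%, 71.5 to 86.6%) at day 21, beside 86.1% and 88.8% of the other cells, whose counts of both are low. That share depends on which genes are summed: without histones it was 98.5% and 97.5% of dividing cells. Few cells were low in both: 15 dividing cells at day 7 and 14 at day 21 had under 10 of each, beside 1416 of 1574 and 3592 of 3992 other cells. Of those 15 and 14, 12 and 7 carried mural markers.
The Schwann-marked dividing cells had medians of 31 replication and 69 mitotic UMIs at day 7 and 22 and 65 at day 21. The cells without other-type markers had 22 and 48 at day 7 and 15 and 53 at day 21. The mural-marked cells had 3.5 and 33 at day 7 and 1.5 and 5 at day 21.

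**Figure D5:**
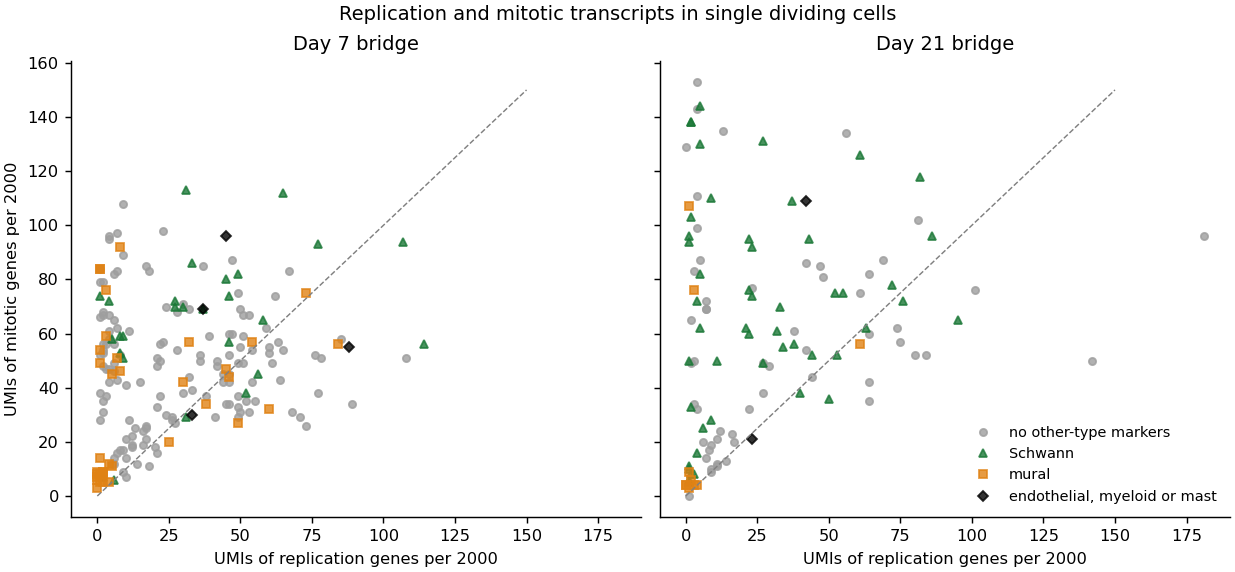
Replication UMIs (horizontal) and mitotic UMIs (vertical) of each dividing cell, thinned to 2000 UMIs, by marker set, at day 7 (left) and day 21 (right). The dashed line marks equal counts. Most cells lie above 10 on at least 1 axis, and the 10 mural-marked cells of day 21 lie mostly near the origin, with medians of 1.5 and 5.

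Between the 2 times most cycle genes of the dividing class differed by less than 2-fold, while many layer and injury genes differed by more. No member of the DNA synthesis, histone, mitotic regulator, kinetochore, spindle, condensin or anaphase-promoting complex lists was past 2-fold at day 21 against day 7, where 11% of all measured genes were higher and 9.36% lower (10.9% and 10.1% without other-type cells). Of the G1 list 4 of 17 and of the licensing list 1 of 19 were higher at day 21, and in the cells without other-type markers 1 of 30 spindle and 1 of 12 anaphase-promoting complex genes as well. Of the injury mesenchyme list 8 of 10 were lower at day 21 (median log2 ratio -2.04), with Tnc (tenascin C) at 81.6 CPM against 566 and Cthrc1, a collagen triple helix protein of repair fibroblasts, at 35.1 against 516. Of the perineurial list 8 of 13 were higher (1.38), with Itgb4, the integrin that anchors perineurial cells to their basement membrane, at 138 against 17.2 CPM. In the cells without other-type markers the 2 medians were -2.08 and 1.39. Day, depth and library cannot be told apart in this comparison.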

How the data were processed

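UMI counts were deposited by the authors as 1 filtered gene-by-barcode matrix per library, made with Cell Ranger 6.1.2 per the file headers. The submitters' processing notes also name Cell Ranger 3.0.2, the builds mm10 and GRCm38, and Seurat 4.0.1. Each cell's class and library come from the authors' cell metadata. 1 metadata cell of day 21 was not among the barcodes and was left out. Cell filters and clustering settings are not given in the sources used here.

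Counts were summed per class and library and scaled to the sum (CPM). No test was run, as the libraries had no replicates. Intervals (95%) are exact Poisson for levels, exact conditional binomial for ratios and Clopper-Pearson for shares, and cover counting error only. Ratios had 0.5 counts added on the log2 scale. Thinning drew 2000 UMIs per cell without replacement, seed 11. Nearest classes used 5-fold held-out recovery. Scripts were tested on simulated data. The dividing class and all gene lists were chosen with earlier results of these data known. Named genes were the 5 markers, up to 4 per list with the largest ratio and at least 20 CPM, the 10 largest per library and direction outside the cell cycle lists with at least 50 CPM and UMIs in at least 10% of cells, and Pdgfra and Pdgfrb. Other genes named were chosen after their values were seen. Promoters are from RefSeq and positions from GRCm38.p6. Python 3.11.15, numpy 2.4.6, scipy 1.17.1, pandas 2.3.3 and matplotlib 3.10.9 were used.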

Additional observations from a re-analysis of the deposited data

Results flagged for a closer look

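Barcodes that the authors put in no class also held division markers. At day 7, 44 of 1753 such barcodes with at least 2000 UMIs (2.51%) had at least 3 of the 5 markers after thinning to 2000 UMIs, and at day 21, 16 of 2458 (0.651%). Intact nerve had 0 of 452, which allows a share of up to 0.664%, so the day 21 share is not above what that library could have missed. Of the 44, 3 also carried Schwann markers, 1 mural and 4 myeloid markers, and of the 16, 3 Schwann, 1 mural, 2 endothelial and 2 myeloid. They are no members of the dividing class and enter no comparison above.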

How the results depend on the processing

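Of the alternatives tried, 188 values that answer a comparison stayed close to the main value, 39 moved and 2 changed side. Among single genes and list details 2352 stayed close, 548 moved and 23 changed side. For lists and genes, changing side was counted only where the main value was past 2-fold and its sign turned. Smaller values whose sign turned are counted with the rest. The perineurial median at day 7, for example, went from 0.54 to -0.47 when weighted and is counted as moved. No paired analysis was possible because each group was 1 library. Leaving out the dividing cells with other-type markers was chosen after seeing the data.

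With at least 20 CPM in the higher sum, 584 genes were past 2-fold higher and 203 lower at day 7, and 970 and 528 at day 21. With 5 counts added the numbers were 5381, 351, 8483 and 443. Matrix medians were -0.56 at day 7 with the classes weighted to the nearest-class makeup, and -0.77 and -0.71 without other-type cells. Epineurial medians were -0.12 (day 7) and -0.71 (day 21) when weighted, and -2.17 at day 7 without other-type cells. The weighted perineurial median at day 7 was -0.47. Without other-type cells the pericyte medians were -0.81 and -0.45. With at least 20 CPM the endothelium median at day 21 was -0.86.

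Without other-type cells the day 7 log2 ratios were -0.084 (Pdgfa), -1.69 (Mylk), -1.19 (Higd1b), -0.61 (Rgs5), -1.01 (Ndufa4l2), -0.33 (Actg2), -0.84 (Esam) and -0.17 (Tyrobp). At day 21 they were -1.99 (Mylk), -0.62 (Ndufa4l2), -0.51 (Myh11), -0.47 (Esam) and -0.53 (Lyz2). Weighted to the makeup, Ly6c1 was 0.28, Lypd2 -0.47 and Scara5 0.21 at day 7, and Tnc -0.30 at day 21. With 2 or more markers as the cut, Mylk was -1.09 at day 21. Thinned, Aen was -0.75, Rsad2 1.37 and Ifit1 0.49 at day 21, and Rsad2 was 0.90 with 5 counts added.

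Shares of the class were 6.24% at day 7 and 1.48% at day 21 for cells with at least 3 markers after thinning, and 8.11%, 1.38% and 0.149% (intact) without other-type cells. By Pearson correlation the nearest class was MES_ENDO for 4.37%, MES_PERI for 61.7% and MES_DIFF for 15.0% at day 7, and MES_PERI for 71.4% and MES_DIFF for 10.1% at day 21. With 200 genes MES_PERI took 45.1% and MES_DIFF 37.9% at day 7. With genes higher in dividing cells left out, MES_EPI-diff took 4.37%. Without other-type cells day 7 gave 2.88% MES_EPI, 51.8% MES_PERI and 5.04% MES_EPI-diff, and day 21 gave 12.5% MES_ENDO, 1.79% MES_EPI, 35.7% MES_PERI and 50.0% MES_DIFF. Mitotic transcripts led in 98.5% and 97.5% of cells without histones, and in 64.6% and 59.7% over genes under 20 CPM in other cells. The causes of these shifts were not tested. Low depth at day 21 limits what single cells show there.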
